A study of Homo sapiens with 9 samples.

Results

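The gelsolin family is a group of actin-binding proteins named after gelsolin, and 7 of its genes were followed here: SCIN (scinderin), GSN (gelsolin), VIL1 (villin), AVIL (advillin), CAPG (macrophage-capping protein), FLII (flightless I) and SVIL (supervillin). They were picked out by gene symbol, with earlier results of these data known. Each matched 1 of the 60649 rows of the count table, and 5 of the 7 had enough reads to be tested among 14274 genes. To study the effects of the aryl hydrocarbon receptor (AhR, gene AHR), RNA was sequenced from 9 libraries of MDA-MB-231, a long-established line of human triple-negative breast carcinoma, labelled as mammary epithelial cells. There were 3 groups of 3 replicates: control cells with the vector PLKO-GFP, cells with the short hairpin RNA shAHR#2, and cells with a second hairpin, shAHR#3. These are the numbers of the labels. The study's methods number the AHR hairpins #1 and #2, and how the 2 numberings correspond is not stated. Per the study's methods, constructs were delivered by lentivirus and puromycin-resistant cells were aggregated, so each group was a mixed population rather than 1 clone, and the controls went through a viral vector as well. All groups were grown in the same serum-containing medium and carry the label "proliferation" as treatment. Neither the labels nor the methods say whether replicates were separate cultures, so p-values measure only the spread between these libraries, which may be technical.

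Proteins of this family are built from repeats of the gelsolin domain and are best known for cutting actin filaments in a calcium-dependent way and then capping their fast-growing ends, while phosphoinositides at the membrane release them. Scinderin and gelsolin are the classical severing members. Villin and advillin add a headpiece that bundles filaments, CAPG caps ends without severing, and flightless I and supervillin carry gelsolin repeats within larger proteins, the first also known as a coregulator of nuclear receptors and the second as a membrane-linked partner of myosin. In epithelial cells they shape microvilli, the cell cortex and motility.

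SCIN was higher with both hairpins, 2.19-fold in shAHR#2 cells and 5.05-fold in shAHR#3 cells, the largest change of any tested member in either comparison. CAPG and SVIL were also higher with both hairpins, by 15.1% to 48.8%, and FLII fell by 15.9% in shAHR#2 cells and fell by 9.91% in shAHR#3 cells. GSN fell by 13.2% in shAHR#2 cells and was 10.3% higher in shAHR#3 cells, the latter a call that several alternatives ended. VIL1 and AVIL were at the edge of detection in every group.

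Because the constructs deplete a ligand-activated transcription factor, the 250 bases before a RefSeq transcription start are shown. For CAPG and SVIL, with 4 start windows each, the window listed first was taken. Of all 14274 tested genes, 3127 were called higher with both hairpins and 3222 lower with both, so such agreement was common. The sequences are those of the 3 members that were higher with both hairpins and the 1 that was lower with both. Each is written 5′ to 3′ on the strand of the gene (GRCh38.p14), and capitals mark the letters GCGTG, the core of the element that AhR and its partner ARNT recognise, or CACGC where that core lies on the opposite strand.
SCIN, chr7:12570470-12570719, plus strand: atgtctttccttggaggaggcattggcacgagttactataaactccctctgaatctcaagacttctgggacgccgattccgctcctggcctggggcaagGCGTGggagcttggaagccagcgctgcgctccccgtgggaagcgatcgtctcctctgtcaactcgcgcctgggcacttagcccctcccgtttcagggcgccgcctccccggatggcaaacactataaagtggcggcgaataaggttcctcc
SVIL, chr10:29736937-29737186, minus strand: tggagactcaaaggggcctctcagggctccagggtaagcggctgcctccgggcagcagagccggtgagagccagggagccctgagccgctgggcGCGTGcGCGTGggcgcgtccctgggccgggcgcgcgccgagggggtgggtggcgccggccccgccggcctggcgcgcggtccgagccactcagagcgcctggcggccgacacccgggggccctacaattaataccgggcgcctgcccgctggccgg
CAPG, chr2:85414017-85414266, minus strand: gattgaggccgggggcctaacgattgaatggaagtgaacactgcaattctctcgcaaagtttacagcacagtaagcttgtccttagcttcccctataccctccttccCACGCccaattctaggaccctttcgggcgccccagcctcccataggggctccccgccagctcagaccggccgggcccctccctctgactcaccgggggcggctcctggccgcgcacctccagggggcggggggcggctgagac
FLII, chr17:18258739-18258988, minus strand: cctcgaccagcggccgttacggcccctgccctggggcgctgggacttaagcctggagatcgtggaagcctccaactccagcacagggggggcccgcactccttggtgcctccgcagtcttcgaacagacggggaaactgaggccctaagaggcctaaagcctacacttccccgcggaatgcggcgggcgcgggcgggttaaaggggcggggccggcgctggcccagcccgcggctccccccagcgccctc

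SCIN has a single RefSeq start window, and in its 300 bases (250 before and 50 after the start) the core was at position -151 from the start and, on the opposite strand, at position 35. The SVIL window printed above held it at positions -156 and -150, and the CAPG window, on the opposite strand, at position -143. The printed CAPG window was the only 1 of the 4 for that gene with the core. The single FLII window held none of these letters. Over all windows of the same length in the RefSeq table, 36.5% of 35116 held the core and 12.7% held it more than once, so its presence was common among promoters. RefSeq windows were found for 6 of the 7 members, 17 in all: 8 of the 17 held the core, among them 1 of 4 for CAPG, 3 of 4 for SVIL, 2 of 6 for GSN and the single window of AVIL. The CArG box, the site of the serum response factor that drives many actin genes, was matched in 1 of the 17 windows, an alternative start of SVIL, against 1.29% of all windows. A match is a description of the letters in the window and not a binding site.

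Sequencing depth ranged from 15991396 to 20374460 counts per library and was lowest in shAHR#2 cells. The median totals were 19370185 in the control, 16187573 in shAHR#2 cells and 19559744 in shAHR#3 cells. AHR itself, the gene targeted, was at 114 to 121 CPM (read counts scaled to the TMM-normalised library size) in the control, 40.39 to 42.47 in shAHR#2 cells and 44.5 to 52.1 in shAHR#3 cells. Keratins and adhesion genes of epithelium (5 of 5 counted above 3 reads in each group) summed to 677 to 713 CPM in the control, 755 to 783 in the shAHR#2 libraries and 859 to 913 in the shAHR#3 libraries. The single genes did not all follow the order of this sum. CDH1, E-cadherin, had log2 fold changes of 1.00 and 2.19 (edgeR adjusted p = 0.00165 and 2.47e-10). KRT19 was highest in shAHR#2 cells (99.8, 170.7 and 122.1 CPM in control, shAHR#2 and shAHR#3). KRT8 and KRT18 were called only with shAHR#3 (0.40 and 0.31, edgeR adjusted p = 1.96e-14 and 2.68e-12). EPCAM was called with neither hairpin (-0.14 and -0.12, edgeR adjusted p = 0.383 and 0.463). The 3 basal epithelial markers summed to 1.86 to 3.19 CPM in the control, 4.05 to 6.01 in the shAHR#2 libraries and 4.99 to 5.68 in the shAHR#3 libraries, nearly all of it TP63 (0.90 and 0.97, edgeR adjusted p = 5.54e-05 and 1.56e-05), with KRT5 and KRT14 at 0 to 2 counts. Mesenchymal genes, chiefly VIM and FN1, summed to 3430 to 3470 CPM in the control, 6200 to 6380 in shAHR#2 cells and 5020 to 5070 in shAHR#3 cells. Leukocyte markers summed to 0.508 to 0.760 CPM in the control, then 3.80 to 4.93 in the shAHR#2 libraries, and 2.59 to 2.83 in shAHR#3 cells, with CD3E at 0 in every library. Endothelial markers summed to 2.15 to 2.71 CPM in the control, 10.1 to 12.3 in shAHR#2 cells and 11.6 to 13.1 in shAHR#3 cells. Nearly all of this was PECAM1 (2.40, 11.2 and 12.2 CPM in control, shAHR#2 and shAHR#3), with CDH5 at 0 to 12 counts. Fibroblast markers summed to 14.1 to 17.3 CPM in the control and shAHR#2 libraries and 28.1 to 31.3 in shAHR#3 cells. The fibroblast sum hides opposite moves of its genes. With shAHR#2 and shAHR#3, COL1A1 had log2 fold changes of 0.67 and 0.85, COL1A2 of -2.05 and -2.51 and PDGFRB of -0.83 and 1.16. The part of these changes in the results on the family was not tested. In bulk RNA, fewer cells that express a gene cannot be told apart from less RNA per cell.

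Levels of different members were put on 1 scale as RPKM, the CPM divided by the length of all annotated exons in kilobases. In the control cells CAPG was at 71.1 ± 1.49 RPKM (SD, n = 3 here and throughout), FLII at 43.2 ± 0.208, SVIL at 12.8 ± 0.234, GSN at 5.54 ± 0.0856 and SCIN at 0.150 ± 0.0375. This order, from the capping protein CAPG down to scinderin, was the same in each of the 9 libraries, and no neighbouring pair among these 5 overlapped in RPKM. AVIL (0.0637 ± 0.0459 RPKM) and VIL1 (0.0179 ± 0.00577) came last in the control and did not differ beyond their spread in the shAHR#3 libraries, at 0.0310 ± 0.0207 and 0.0290 ± 0.0189. Exon lengths summed over all annotated transcripts understate a level where the cells use a short form; the closing section gives the values for the longest transcript.

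SCIN (ENSG00000006747.15; chromosome 7 of GRCh38, 12570577 to 12660182, plus strand) encodes the severing protein scinderin, also called adseverin, known from secretory cells. It was counted at 26, 45 and 30 reads in PLKO-GFP replicates 1, 2 and 3, at 70, 63 and 60 in shAHR#2 cells and at 179, 161 and 189 in shAHR#3 cells. As CPM these were 1.47, 2.25 and 1.52 in the control, 3.754, 4.045 and 3.796 in shAHR#2 cells and 9.21, 8.24 and 9.23 in shAHR#3 cells. The 3 groups did not overlap, with every shAHR#2 library above every control library and every shAHR#3 library above both. The group means were 1.745 ± 0.436, 3.865 ± 0.157 and 8.89 ± 0.565 CPM.

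The rise of SCIN was past the threshold in each comparison with the control. Its log2 fold change was 1.13 (SE, the standard error, 0.19) in shAHR#2 cells, and the Benjamini-Hochberg adjusted p was 2.41e-06 (quasi-likelihood test of edgeR, 14274 genes). With shAHR#3 it was 2.34 (SE 0.16, adjusted p = 3.62e-15 in edgeR), and for the mean of both hairpins 1.73 (adjusted p = 3.42e-12). Compared directly, SCIN was 2.30-fold higher in shAHR#3 cells than in shAHR#2 cells (log2 difference 1.20, SE 0.14, edgeR adjusted p = 6.42e-09). AHR was at 41.6 ± 1.07 CPM in shAHR#2 cells, and in shAHR#3 cells it was at 47.7 ± 3.98 (log2 difference 0.19, edgeR adjusted p = 0.00283, but 0.0626 without shAHR#3 replicate 2). By size of change SCIN lay at percentile 90.5 of all tested genes in shAHR#2 cells, at 98.5 in shAHR#3 cells and at 97.2 in the direct comparison. PLKO-GFP replicate 2 had the highest control level, and leaving out any 1 library kept the log2 fold change within 1.03 to 1.36 for shAHR#2 and within 2.23 to 2.57 for shAHR#3.

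**Figure D1:**
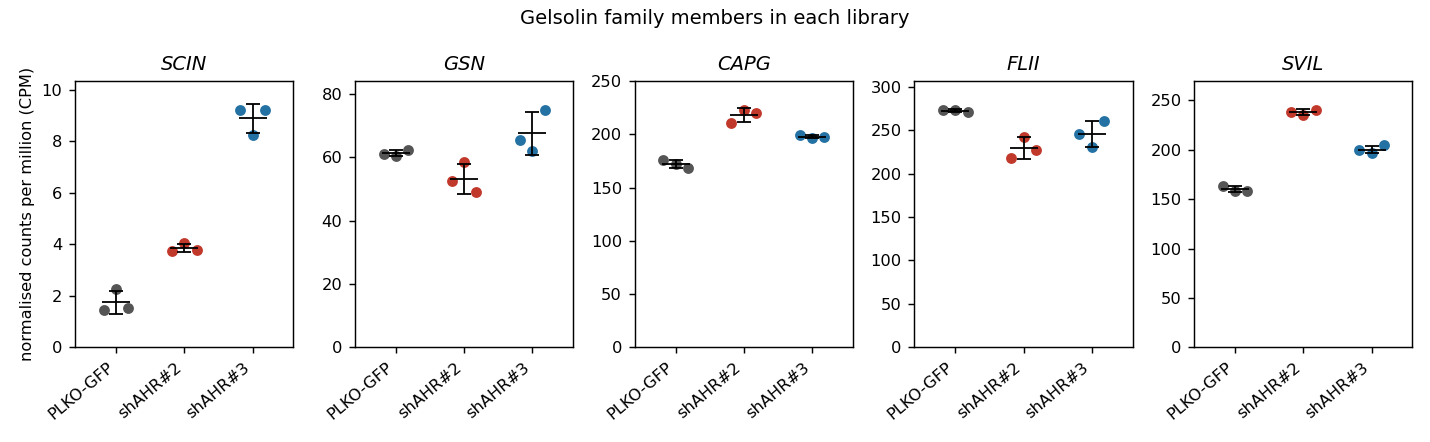
CPM (y axes, each from 0 and on its own scale) of the 5 tested members in the 9 libraries, by group (x axes). Points are libraries, bars the mean and SD of 3; SCIN rises from 1.745 to 3.865 to 8.89 CPM with no overlap between groups, GSN of the control and shAHR#3 overlaps, and the other members move by smaller amounts.

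GSN (ENSG00000148180.21; chromosome 9, 121207794 to 121332843, plus strand) encodes gelsolin, the prototype of the family, made in a cytoplasmic and a secreted form that gene counts do not separate. It was at 61.0, 60.4 and 62.2 CPM in the control, at 52.5, 58.3 and 48.8 in shAHR#2 cells and at 65.5, 61.9 and 74.99 in shAHR#3 cells. All shAHR#2 libraries were below the control, while the shAHR#3 libraries overlapped it, with replicate 2 inside the control range. The log2 fold change was -0.20 (SE 0.06, adjusted p = 0.00239 by edgeR's quasi-likelihood test) in shAHR#2 cells and 0.14 (SE 0.05, edgeR adjusted p = 0.0281) in shAHR#3 cells.

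Of these calls the rise of GSN in shAHR#3 cells did not hold. It was lost with DESeq2 (adjusted p = 0.0694), and in edgeR without PLKO-GFP replicate 1 (adjusted p = 0.0612), without PLKO-GFP replicate 2 (adjusted p = 0.0803) and without shAHR#3 replicate 3, where the log2 fold change came to 0.06 (adjusted p = 0.377). The hairpins did differ from each other: GSN was 0.34 higher on the log2 scale in shAHR#3 cells than in shAHR#2 cells (SE 0.06, edgeR adjusted p = 4.42e-06), with all 3 shAHR#3 libraries above all 3 shAHR#2 libraries. For the mean of both hairpins the log2 fold change was -0.03 and did not pass the threshold (edgeR adjusted p = 0.594). Within each library GSN exceeded SCIN per length, 38.3 ± 8.75 times in the control, 14.5 ± 0.837 times in shAHR#2 cells and 7.97 ± 0.537 times in shAHR#3 cells.

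CAPG (ENSG00000042493.16; chromosome 2, 85394753 to 85418432, minus strand) encodes a protein that caps filament ends without cutting them and is also found in the nucleus. It was at 175.6, 171.8 and 168.4 CPM in the control, 210.5, 223.3 and 219.7 in shAHR#2 cells and 199.0, 196.4 and 197.9 in shAHR#3 cells. The 3 groups did not overlap, and shAHR#2 was the highest. The log2 fold change was 0.34 in shAHR#2 cells (SE 0.03, adjusted p = 2.19e-12 in edgeR) and 0.20 in shAHR#3 cells (SE 0.03, adjusted p = 4.78e-07 in edgeR). The difference between the hairpins was -0.14 (shAHR#3 minus shAHR#2, edgeR adjusted p = 2.45e-04).

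SVIL (ENSG00000197321.15; chromosome 10, 29457338 to 29736959, minus strand) encodes supervillin, which ties actin and myosin to the plasma membrane and to invasive protrusions. Its libraries read 163.6, 158.6 and 158.5 CPM in the control, 238.7, 235.5 and 240.8 in shAHR#2 cells and 199.5, 196.8 and 204.5 in shAHR#3 cells. Again the groups did not overlap and shAHR#2 was the highest. SVIL was 1.49-fold the control in shAHR#2 cells (log2 fold change 0.57, SE 0.03, edgeR adjusted p = 3.22e-19) and 1.25-fold in shAHR#3 cells (0.32, SE 0.03, edgeR adjusted p = 8.87e-12). Direct comparison gave -0.25 for shAHR#3 minus shAHR#2 (edgeR adjusted p = 3.64e-09). A related pseudogene, SVIL2P, had 6 to 15 counts per library, against 2897 to 4451 for SVIL.

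FLII (ENSG00000177731.16; chromosome 17, 18244815 to 18258738, minus strand) encodes flightless I, which joins gelsolin repeats to leucine-rich repeats. It was at 273.7, 273.0 and 271.1 CPM in the control, 218.4, 242.5 and 227.7 in shAHR#2 cells and 245.6, 230.7 and 260.2 in shAHR#3 cells. Both hairpin groups lay below the control, and they overlapped each other. The log2 fold change was -0.25 in shAHR#2 cells (SE 0.03, edgeR adjusted p = 8.06e-08) and -0.15 in shAHR#3 cells (SE 0.03, edgeR adjusted p = 2.92e-04). The direct difference of 0.10 (edgeR adjusted p = 0.0209) was lost with DESeq2 (adjusted p = 0.0612) and without shAHR#2 replicate 1, shAHR#2 replicate 3 or shAHR#3 replicate 3, with log2 differences of 0.06, 0.10 and 0.05 and edgeR adjusted p of 0.203, 0.0555 and 0.197.

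**Figure D2:**
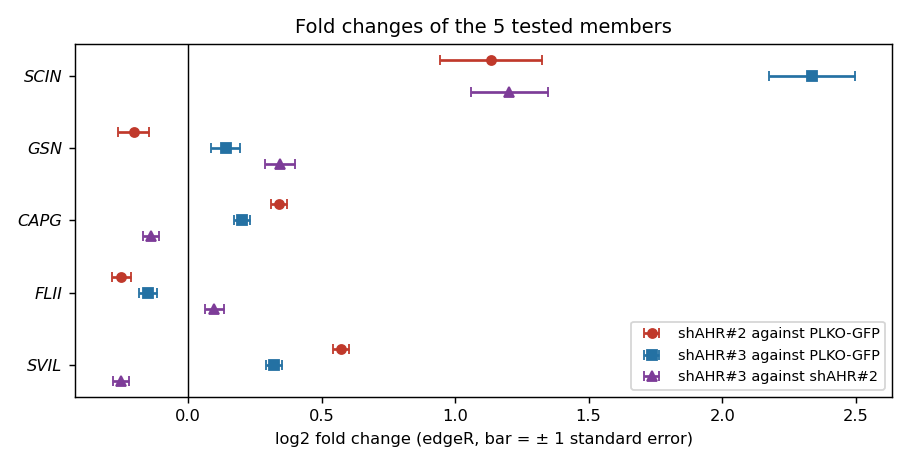
Log2 fold change (x axis, edgeR) of the 5 tested members (rows) for shAHR#2 and shAHR#3 against PLKO-GFP and for shAHR#3 against shAHR#2; bars are 1 standard error. SCIN is at 1.13, 2.34 and 1.20, CAPG and SVIL lie above 0 against the control but below 0 between the hairpins, and GSN lies on opposite sides of 0 with the 2 hairpins.

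Against the control, 3 of the 5 tested members were called higher and 2 lower in shAHR#2 cells, and 4 higher and 1 lower in shAHR#3 cells, by edgeR at an adjusted p under 0.05. Over all 14274 genes 32.6% were called higher and 33.2% lower in shAHR#2 cells, and 26.9% and 27.5% in shAHR#3 cells, so a call was common at this precision and all comparisons share libraries. For the mean of both hairpins 3 members were higher and 1 lower, beside 31.5% and 32.9% of all genes. Between the hairpins 3 were higher (SCIN, GSN, FLII) and 2 lower (CAPG, SVIL) in shAHR#3 cells, beside 21.9% and 20.4%. The median log2 fold change of the 5 was 0.34 in shAHR#2 cells and 0.20 in shAHR#3 cells, against -0.0032 and -6.9e-05 for all genes tested. The changes of CAPG, FLII, SVIL and GSN were modest, at percentiles 33.3 to 72.0 of all tested genes by size for shAHR#2 and 33.3 to 63.4 for shAHR#3. Only SCIN exceeded 1 on the log2 scale, and it did so against the control with each hairpin.

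VIL1 (chromosome 2, 218419121 to 218453295) encodes villin of the intestinal brush border and AVIL (chromosome 12, 57797376 to 57818734) advillin of sensory neurons. VIL1 had 3, 2 and 2 counts in the control, 1, 2 and 1 in shAHR#2 cells and 1, 5 and 6 in shAHR#3 cells. AVIL had 12, 3 and 6 counts in the control, 2, 3 and 6 in shAHR#2 cells and 4, 1 and 6 in shAHR#3 cells. Both failed the filter on low counts, their groups overlapped, and no fold change is given. Without the filter edgeR's adjusted p against the control was 0.754 and 0.632 for VIL1 and 0.488 and 0.342 for AVIL (shAHR#2 and shAHR#3), so a difference was not detectable at this depth. VILL (villin-like), the nearest relative outside the 7, had 1, 1 and 0 counts in the control, 1, 2 and 3 in shAHR#2 cells and 7, 0 and 8 in shAHR#3 cells (edgeR adjusted p without the filter 0.373 and 0.0548).

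The makeup of the family followed mainly from CAPG, FLII and SVIL. Summed over the 7 members, the control libraries held 132.8 ± 1.88 RPKM, the shAHR#2 libraries 150.6 ± 4.73 and the shAHR#3 libraries 143.6 ± 3.61. CAPG made up 53.5% ± 0.367 of this sum in the control, 59.8% ± 0.354 in shAHR#2 cells and 57.0% ± 1.23 in shAHR#3 cells. FLII went from 32.5% ± 0.316 to 24.1% ± 0.543 and 27.1% ± 0.945, and SVIL from 9.62% ± 0.0748 to 12.6% ± 0.488 and 11.1% ± 0.0907. The ranges of the 3 groups did not overlap for these members. SCIN remained a small part at its highest, 0.113% ± 0.0285 in the control, 0.221% ± 0.00402 in shAHR#2 cells and 0.532% ± 0.0228 in shAHR#3 cells. GSN held 4.17% ± 0.109, 3.19% ± 0.241 and 4.24% ± 0.324. Per library, CAPG exceeded FLII 1.62 to 1.67 times in the control, 2.40 to 2.52 times in shAHR#2 cells and 1.98 to 2.22 times in shAHR#3 cells. These shares sum to a whole, so a rise of 1 member lowers the others, and they are given without a test.

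**Figure D3:**
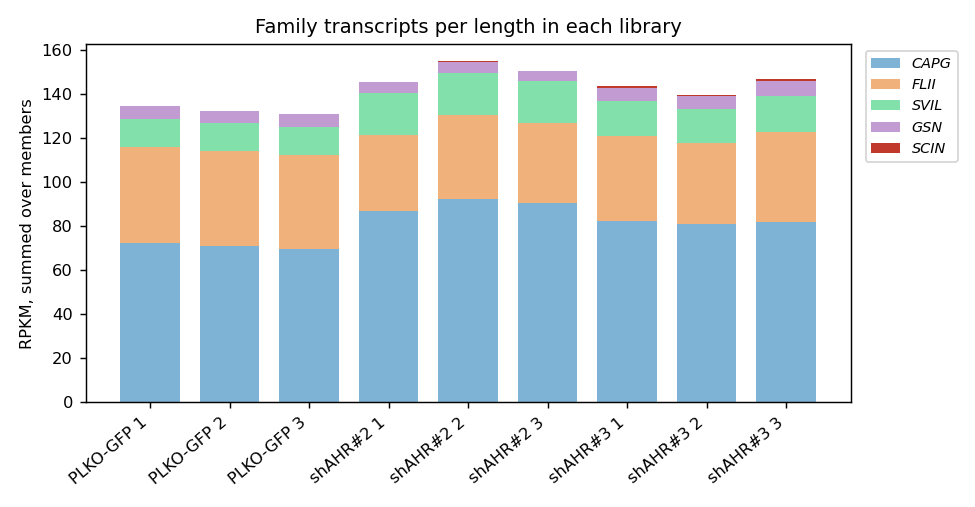
RPKM (y axis, from 0) of CAPG, FLII, SVIL, GSN and SCIN stacked for each of the 9 libraries (x axis); VIL1 and AVIL are too low to draw. CAPG takes at least 53.1% of every column and the sum is 132.8 RPKM on average in the control, 150.6 in shAHR#2 cells and 143.6 in shAHR#3 cells, while SCIN is a thin line at the top.

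To set the family beside the machinery it works with, 99 other actin regulators in 5 lists were read from the same edgeR fit, of which 77 were tested. For shAHR#2, 38 were higher and 23 lower (79.2% called, median log2 fold change 0.14), and in shAHR#3 cells 30 were higher and 24 lower (70.1%, median 0.04). Over all 14274 genes 9390 were called for shAHR#2 (32.6% higher, 33.2% lower) and 7771 for shAHR#3 (26.9% higher, 27.5% lower), and the counts of each list below stand beside these shares. Among 21 genes of filament severing and turnover, all tested, 8 were called higher and 8 lower for shAHR#2 (7 and 7 for shAHR#3). Among genes whose log2 CPM averaged 1 or more, the largest rise shared by both hairpins was that of the cofilin CFL2 (log2 fold changes 0.82 and 0.27, edgeR adjusted p = 1.36e-21 and 7.54e-08) and the largest fall that of CAP1, a partner of cofilin (-0.76 and -0.44, adjusted p = 3.37e-24 and 9.03e-17). Below that limit GMFG, at 6 to 58 counts per library, rose more (2.52 and 2.68), and in the capping list ADD2, at 0 to 27 counts, fell more than the gene named there (-3.41 and -1.36). Of 14 tested genes of filament end capping (23 listed), the function CAPG shares, 5 were called higher and 4 lower for shAHR#2 (6 and 5 for shAHR#3). Twinfilin TWF2 rose (0.96 and 0.62, edgeR adjusted p = 8.66e-17 and 3.58e-11), whereas the adducin ADD1, which links filament ends to spectrin, fell from 237 ± 5.89 CPM to 36.8 ± 1.19 in shAHR#2 cells and 117.5 ± 3.04 in shAHR#3 cells (-2.69 and -1.01, edgeR adjusted p = 1.71e-36 and 3.31e-25).

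Among 7 tested actins and monomer-binding genes (13 listed) 4 were higher and 1 lower with each hairpin, beside 32.6% higher and 33.2% lower of all genes for shAHR#2 and 26.9% and 27.5% for shAHR#3. Profilin PFN2 rose by 0.67 and 0.75 on the log2 scale (edgeR adjusted p = 3.43e-13 and 1.43e-14), and cytoplasmic actin ACTB fell by 0.17 and 0.10 (adjusted p = 2.76e-07 and 0.00139). Of 10 tested genes of bundling and microvilli (16 listed), 4 were called higher and 5 lower for shAHR#2 (4 and 4 for shAHR#3). The named genes were the membrane linker MSN, moesin (0.53 and 0.06, edgeR adjusted p = 5.91e-21 and 0.0373), and the leukocyte plastin LCP1 (-0.94 and -0.50, adjusted p = 1.52e-09 and 7.01e-05). Of 25 tested nucleation genes (26 listed) 17 were called higher and 5 lower for shAHR#2 (9 and 7 for shAHR#3), with median log2 fold changes of 0.24 and 0.03. In this list the formin DAAM2 went from 2.52 ± 0.478 CPM to 13.4 ± 0.155 and 33.0 ± 0.804 (2.42 and 3.72, edgeR adjusted p = 1.84e-19 and 6.23e-27), while its relative DAAM1 fell (-1.19 and -0.85, adjusted p = 6.56e-17 and 3.90e-13). DAAM2 was ordered like SCIN, lowest in the control and highest in shAHR#3 cells.

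**Figure D4:**
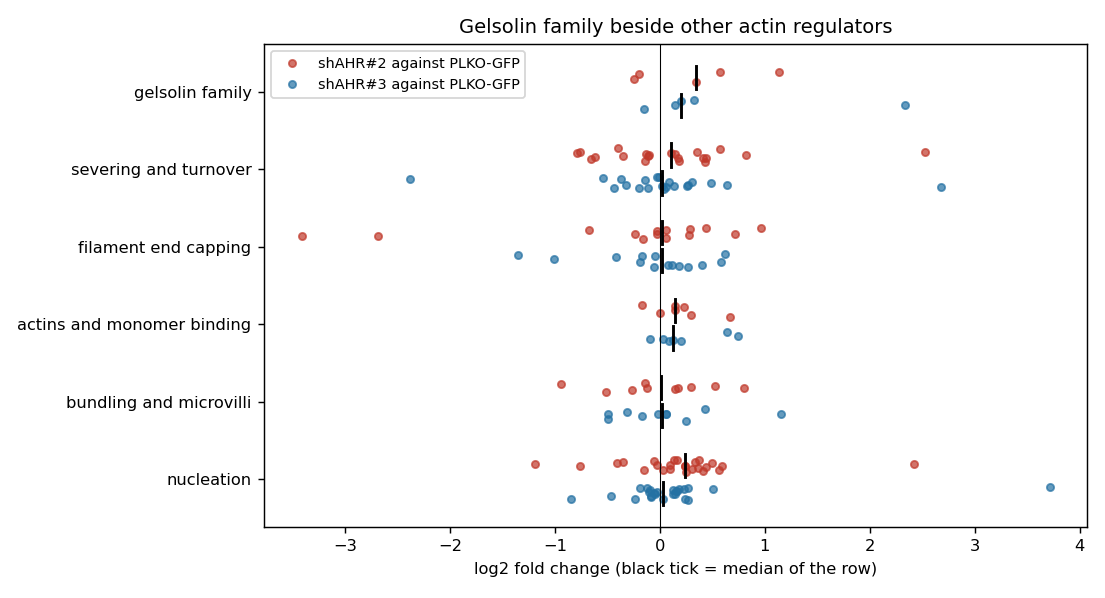
Log2 fold change (x axis) of every tested gene of the gelsolin family and of 5 lists of other actin regulators (rows), for shAHR#2 and shAHR#3 against PLKO-GFP; the black tick is the median of each row. The family medians are 0.34 and 0.20 and the nucleation medians 0.24 and 0.03, and the point farthest right is DAAM2 at 3.72 in shAHR#3 cells.

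The genes whose pattern over the 9 libraries was most like each member were found by Pearson's r of log2 CPM, as a description. The libraries fall into 3 groups that differ widely, which by itself gives high values. For SCIN the closest of 11832 genes were STXBP6 (r = 0.993, log2 fold changes 1.41 and 2.98), SUSD2 (r = 0.991, 0.95 and 1.97) and JAG1 (r = 0.991, 0.53 and 0.99), and 117 genes had r over 0.95. For SVIL the closest gene was P4HA1 (r = 0.998) with 905 genes over 0.95, and for CAPG MTRES1 (r = 0.995) with 736. FLII had TBRG4 (r = 0.985) and 29 such genes, and GSN HNRNPUL1 (r = 0.965) and only 3.

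The members lie on different chromosomes apart from CAPG and VIL1, both on chromosome 2, and SCIN lies 4.26 Mb from AHR on chromosome 7. Beside SCIN, VWDE had log2 fold changes of -0.38 and 0.18 (edgeR adjusted p = 0.0399 and 0.311). Beside GSN, CNTRL was at -0.67 and -0.13 and STOM at 0.19 and 0.65. Beside CAPG, ELMOD3 was at -0.60 and -0.24 and PARTICL at -0.29 and -0.49, the last not past the threshold (edgeR adjusted p = 0.58 and 0.356). Beside SVIL, JCAD was higher with both hairpins (1.21 and 1.05, edgeR adjusted p = 1.83e-16 and 2.11e-14), and BAMBI, 774406 bases away, was at 0.14 and 0.66. Next to FLII were ALKBH5 (0.26 and 0.17) and MIEF2 (-0.35 and -0.41, not past the threshold). For the untested members the neighbours were CTDSP1 (0.50 and 0.33) and CNOT9 (-0.47 and -0.16) beside VIL1 and EEF1AKMT3 (0.68 and 0.45) and CTDSP2 (0.04 and 0.44) beside AVIL.

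Some members share genomic span with genes on the other strand, and whether counting used strand is not stated. FLII overlaps LLGL1, which had 339 to 542 counts per library, and the annotated span of GSN overlaps RAB14, with 3472 to 4325. VIL1 overlaps USP37 and AVIL overlaps TSFM, and without strand the few reads on them cannot be told apart from reads of these genes. The 2 noncoding genes that overlap SCIN had no count in any library.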

How the data were processed

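Stranded mRNA libraries (500 ng of RNA) were sequenced from a single end by the authors and aligned to GRCh38.p13 with STAR, and the submitters' processing notes also name FastQC, Subread and featureCounts. The deposited values are raw counts of reads per gene; annotation release and strand setting are not given in the sources used here. Every step after the counts was run anew in R 4.3.3 with edgeR 4.0.16. Genes kept by filterByExpr (minimum count 10, minimum total 15) were scaled by TMM, and the quasi-likelihood test was fitted once to the 9 libraries, 1 mean for each group, without a block. The study used DESeq2, here an alternative (version 1.42.0). Standard errors were derived from the fold change and the F statistic. The fits were tested on simulated data. RPKM used merged exon lengths of GENCODE 44, and promoter windows came from RefSeq (GRCh38.p14). The members and lists were chosen with earlier results of these data known.

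Genes outside the family were named by rule: AHR and VILL, the largest rise and fall of each actin list called with both hairpins where log2 CPM averaged 1 or more, the genes most like a member, and its nearest tested neighbours. Some results that this rule selects are not reported here. Marker genes, GMFG, ADD2, SVIL2P and the genes that overlap a member were named after their values were seen. No library was a copy of another: chi-square values per degree of freedom between replicates were 1.76 to 4.24.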

Additional observations from a re-analysis of the deposited data

Results flagged for a closer look

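The hairpins differed from each other at an adjusted p under 0.05 for the 5 tested members when shAHR#3 was compared directly with shAHR#2 by edgeR's quasi-likelihood test. SCIN was higher with shAHR#3 by 1.20 on the log2 scale, GSN by 0.34 and FLII by 0.10, whereas CAPG was at -0.14 and SVIL at -0.25 (adjusted p = 6.42e-09, 4.42e-06, 0.0209, 2.45e-04 and 3.64e-09). Of all 14274 genes tested, 21.9% were called higher and 20.4% lower in this comparison. The differences held in all 3 against 3 libraries for SCIN, GSN, CAPG and SVIL, and FLII overlapped. How many of all genes separate the hairpins in this way was not counted. The FLII difference was not a stable call: it was lost with DESeq2 (adjusted p = 0.0612), at a threshold of 0.01, and in edgeR without shAHR#2 replicate 1, shAHR#2 replicate 3 or shAHR#3 replicate 3 (adjusted p = 0.203, 0.0555 and 0.197). GSN is the member whose calls against the control had opposite signs, as had those of 290 of all 14274 genes. The GSN call for shAHR#3 was lost with DESeq2 (adjusted p = 0.0694).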

How the results depend on the processing

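Of 335 log2 fold changes of members under alternatives, 324 kept direction and call, 10 lost the call and 1 turned. The losses concern GSN with shAHR#3 and FLII between the hairpins: DESeq2 gave 0.14 and 0.093, a threshold of 0.01 left 0.14 and 0.10 uncalled, and leaving out 1 library gave 0.058 to 0.20 for GSN and 0.055 to 0.14 for FLII. GSN for the mean of both hairpins, never called, ranged from -0.073 to 0.00062, the last without shAHR#2 replicate 3. Requiring a log2 fold change of 1 or more left 1691 (shAHR#2), 961 (shAHR#3), 1177 (mean) and 530 (between hairpins) genes called. With the longest transcript as length, control levels moved to 138 RPKM for CAPG, 65.2 for FLII, 19.3 for SVIL, 9.485 for GSN and 0.122 for AVIL, in the same order. For GSN that transcript has 6454 bases and only 2 exons, and no shorter form was tried. Same-numbered replicates did not deviate together (correlations from -0.0989 to 0.0864, 4 of 9 libraries closest to their own number); with the replicate block SCIN was at 1.14 and 2.34, and no member changed call. Depth limits VIL1 and AVIL most, at no more than 12 counts per library.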
